A study of Rattus norvegicus with 16 samples.

Results

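The miR-26 family was represented on the array by 2 rat miRNAs, rno-miR-26a and rno-miR-26b, taken by name from the 677 miRNAs listed there. Each had 2 probes of 10 spots, so that the family held 4 of 1644 probes and 40 of 13540 spots. Both members were well above background on all 16 arrays with both of their probes, and both were among the 114 miRNAs tested. The samples were hindlimb muscles of male Fischer 344 rats, a common inbred strain of ageing research, with no genetic or drug treatment in any group. The 4 groups were soleus of old rats (25 to 28 months), soleus of young rats (6 to 7 months), extensor digitorum longus (EDL) of old rats and EDL of young rats at the same ages, with 4 arrays each. Soleus is a mainly slow-twitch postural muscle, and EDL is a mainly fast-twitch muscle. The labels number the samples, and the same numbers recur in soleus and EDL of each age. The labels do not say whether same-numbered samples share an animal or that each came from a separate animal. The fit left the samples unpaired, so the p-values measure the spread between these samples.

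Mature miR-26 guides the RNA silencing complex to transcripts that pair with its seed and lowers their stability or translation. In mouse myoblasts, miR-26a is known to promote differentiation by repressing Ezh2, a histone methyltransferase that keeps muscle genes silent, and in regenerating mouse muscle it represses Smad1 and Smad4, which carry TGF-beta and BMP signals. Both miRNAs lie within genes of small C-terminal domain phosphatases and are thought to be transcribed with these hosts. Messenger RNA, host transcripts and protein were not measured here.

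The mature strands are shown because the members share the seed that pairs with targets and differ in few other bases. Sequences are RefSeq entries on build GRCr8, written 5′ to 3′, with the seed (bases 2 to 8) in capitals.
miR-26a-5p: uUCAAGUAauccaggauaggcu
miR-26b-5p: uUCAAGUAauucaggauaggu
miR-26a-3p: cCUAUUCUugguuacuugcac
miR-26b-3p: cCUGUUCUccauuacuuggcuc
The names miR-26a and miR-26b on the array carry no arm and are the older names of the 5p strands, while miR-26a* and miR-26b* are those of the 3p strands. The 5p strands were 22 and 21 bases long, shared their first 10 bases and differed by 2 substitutions over 21 compared bases, C11U and C21U, counted from the 5′ end with the miR-26a base first. Of 724 mature rat miRNAs in the RefSeq table, 2 had the seed UCAAGUA, and these were the 2 members.

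The miR-26a-5p strand lies at chr8:127633063-127633084 on the plus strand, inside the protein-coding gene Ctdspl, which spans 127520478 to 127644999. The miR-26b-5p strand lies at chr9:83425723-83425743 on the plus strand, inside the protein-coding gene Ctdsp1, which spans 83422755 to 83428411. The 2 precursor hairpins of 90 and 85 bases are shown with the 5p strand in capitals, to place the measured strand within each precursor.
Mir26a: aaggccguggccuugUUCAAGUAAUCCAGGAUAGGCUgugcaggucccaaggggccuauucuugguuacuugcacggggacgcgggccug
Mir26b: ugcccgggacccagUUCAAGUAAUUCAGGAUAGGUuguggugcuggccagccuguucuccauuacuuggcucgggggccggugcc

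The 3p strands were not detected. The 2 probes of miR-26a* and the 4 probes of miR-26b* were well above background in 0 of 96 probe and array pairs, with intensities between -4.77 and 8.47. The brighter probes of the 5p strands read 707 to 5500 intensity units for miR-26a and 72.7 to 823 for miR-26b. Probes differ in binding, so these intensities do not rank one miRNA against the other. The probe sequences were not used here, and how far the probes of one member also read the other, nearly identical strand was not tested, which bears on the level of the dimmer miR-26b and on the ratio of the members. The spots of a member probe on 1 array had a median coefficient of variation of 4.78% (range 1.35% to 11.9%).

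The soleus arrays were on the whole dimmer than the EDL arrays, with some overlap. The 75th percentile intensity used for scaling was 290 to 681 on the 8 soleus arrays and 589 to 1864 on the 8 EDL arrays, and 59 to 86 against 83 to 138 miRNAs were well above background. The labelling spike-in quality measure was inside the software's own range on 2 of 8 soleus arrays and on 8 of 8 EDL arrays. The arrays came from 3 slides, of which 1 held all EDL samples, 1 the young soleus and 1 the old soleus samples, so slide and group cannot be told apart for soleus age and for muscle. On the EDL slide the old and young samples lay in different columns. Of the 7 striated muscle markers listed, 5 were on the array, and each was well above background on all 4 arrays of every group except 1 marker in young EDL. The summed scaled level of these markers was 54.4 to 64.4 in old soleus, 68.1 to 79.8 in young soleus, 54.0 to 60.8 in old EDL and 46.7 to 59.8 in young EDL. In whole muscle, fewer cells of a type and less RNA per cell cannot be told apart.

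miR-26b was lower in soleus than in EDL, by 1.46-fold in old rats and by 1.25-fold in young rats, and in young rats this direction turned under scaling to the labelling spike-ins (log2 difference 0.28). miR-26a did not pass the test in either muscle comparison, though narrowly so in old rats, and neither member passed in either age comparison. Levels below are log2 of intensity divided by the array's 75th percentile over the 95 probes measured on all arrays, for the brighter probe of each miRNA. Differences were tested with limma across 114 miRNAs, with Benjamini-Hochberg adjustment at 0.05. The difference of miR-26a in old rats was just outside the threshold (limma adjusted p = 0.0513) and passed in 7 of 17 alternative settings. That of miR-26b in young rats was just inside it (limma adjusted p = 0.043). Of 17 alternative settings, 6 lost that call and 1 reversed its direction, so the members are not set apart by these calls.

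In old rats the log2 level of miR-26b was -1.88, -1.84, -1.76 and -1.67 in soleus samples 1 to 4. In old EDL samples 1 to 4 it was -1.18, -1.17, -1.44 and -1.15. All 4 old soleus samples lay below all 4 old EDL samples, and EDL sample 3 was the closest to soleus. The log2 difference, soleus minus EDL, was -0.55 (SE 0.12, 95% interval -0.81 to -0.29, limma adjusted p = 0.00185). In this comparison 53.5% of the 114 tested miRNAs passed, 32.5% with a lower level in soleus, and 30.7% were lower with groups that did not overlap, so a pass was common among these miRNAs. The 114 include miRNAs well above background on as few as 4 arrays. Of the 54 well above background on all arrays, as miR-26b was, 39 passed, 24 with a lower level in soleus. Within these 54, miR-26b had the 13th lowest difference, 0.39 below their median of -0.16. The difference was -0.11 (adjusted p = 0.658) with array brightness as a covariate in the limma model, -0.27 (adjusted p = 0.716) with normexp background correction and -0.19 (adjusted p = 0.0991) with spike-in scaling, none of which passed.

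In young rats the log2 level of miR-26b was -2.00, -1.78, -1.55 and -1.71 in soleus samples 7 to 10. In young EDL samples 7 to 10 it was -1.45, -1.41, -1.72 and -1.14. The groups overlapped, since EDL sample 9 lay within the soleus range, and soleus sample 7 was the lowest of all 16. The log2 difference was -0.32 (SE 0.12, 95% interval -0.58 to -0.07, limma adjusted p = 0.043), in a comparison where 43% of tested miRNAs passed and 23.7% were lower in soleus. Of the 54 miRNAs well above background on all arrays, 31 passed, 17 with a lower level in soleus. The call of miR-26b was lost when any of 10 single arrays was left out, namely young EDL 7, 8 or 10, old EDL 1 or 2, young soleus 7, 8 or 10, or old soleus 2 or 3. The adjusted p was then 0.0506 to 0.144, with differences between -0.34 and -0.22. It was also lost with array brightness as a covariate, where the difference was -0.025 (adjusted p = 0.972). Whether the muscle difference of miR-26b itself changed with age was tested by the interaction, given below. It did not pass at the scaling used, but passed under spike-in scaling.

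The levels of miR-26a were closer together. In old rats its log2 level was 1.22, 1.37, 1.39 and 1.48 in soleus samples 1 to 4 and 1.57, 1.57, 1.64 and 1.59 in EDL samples 1 to 4. All 4 old soleus values lay below the 4 old EDL values, which spanned less than those of any other group. Such a separation was common, since 30.7% of the 114 tested miRNAs were lower in old soleus with groups that did not overlap. In this comparison 53.5% of the tested miRNAs passed, and 39 of the 54 well above background on all arrays. The log2 difference, soleus minus EDL, was -0.23 (SE 0.09, 95% interval -0.42 to -0.03, limma adjusted p = 0.0513), just outside the threshold. The adjusted p was 0.00806, 0.0351, 0.0362 and 0.0367 when young EDL 7, young EDL 10, young soleus 7 or old soleus 4 was left out, and 0.0506 to 0.146 without each of the other 12 arrays. In young rats the level was 1.29, 1.29, 1.49 and 1.41 in soleus samples 7 to 10, and 1.10, 1.49, 1.42 and 1.61 in EDL samples 7 to 10. The young soleus values lay inside the range of the young EDL values, and EDL sample 7, the brightest array, had the lowest level of all 16. The log2 difference in young rats was -0.036 (SE 0.09, 95% interval -0.23 to 0.16, adjusted p = 0.857), an interval that leaves room for a difference of up to 0.23 in size. With quantile normalisation it was -0.50 and passed (adjusted p = 0.00263), while with spike-in scaling it was 0.57 and also passed. Of 17 alternative settings, 3 reversed its direction.

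**Figure D1:**
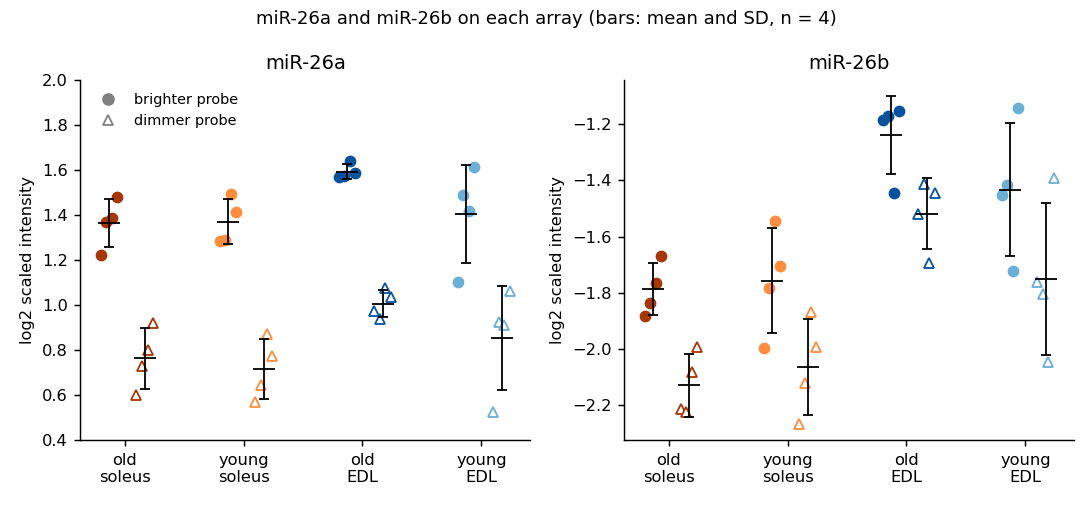
Log2 scaled intensity (vertical axis) of miR-26a and miR-26b on each array in old soleus, young soleus, old EDL and young EDL, with filled circles for the brighter and open triangles for the dimmer probe, and bars for the group mean and SD (n = 4). The old EDL circles of miR-26b lie at -1.44 to -1.15 and the old soleus circles at -1.88 to -1.67, and the old EDL circles of miR-26a, at 1.57 to 1.64, lie above those of both soleus groups.

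Neither member passed the test between old and young rats. In EDL, old minus young was 0.19 for miR-26a (SE 0.09, 95% interval -0.01 to 0.38, limma adjusted p = 0.256) and 0.20 for miR-26b (SE 0.12, interval -0.06 to 0.45, adjusted p = 0.379) on the log2 scale. Old and young EDL overlapped for both members, in a comparison where 12.3% of tested miRNAs passed (10.5% higher and 1.75% lower) and 12.3% had groups that did not overlap. The value for miR-26a rested on young EDL sample 7, without which it was 0.084 (adjusted p = 0.583). That for miR-26b was 0.099 (adjusted p = 0.776) without young EDL sample 9, and 0.30 (adjusted p = 0.106) without young EDL sample 10. With the percentile taken over all probes the values were -0.12 and -0.11, with normexp that of miR-26b was -0.17, and with quantile normalisation that of miR-26a was -0.40 and passed (adjusted p = 0.0219).

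In soleus, old minus young was -0.0051 for miR-26a (SE 0.09, 95% interval -0.20 to 0.19, limma adjusted p = 1) and -0.030 for miR-26b (SE 0.12, interval -0.29 to 0.23, adjusted p = 1). Old and young soleus overlapped for both members, and 3.51% of tested miRNAs passed there, 1.75% with a higher level in old soleus. The age effect in soleus minus that in EDL was -0.19 for miR-26a (SE 0.13, interval -0.47 to 0.09) and -0.23 for miR-26b (SE 0.17, interval -0.59 to 0.14), with a limma adjusted p of 0.554 for each. In that interaction 0.877% of the tested miRNAs, 1 of 114, passed. Under spike-in scaling miR-26b was lower in old than in young soleus and passed, and its interaction passed as well. Of 17 alternative settings for age in soleus, 4 reversed the direction of miR-26a and 2 that of miR-26b. Age effects as large as 0.38 for miR-26a and 0.45 for miR-26b in EDL remain inside the intervals.

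**Figure D2:**
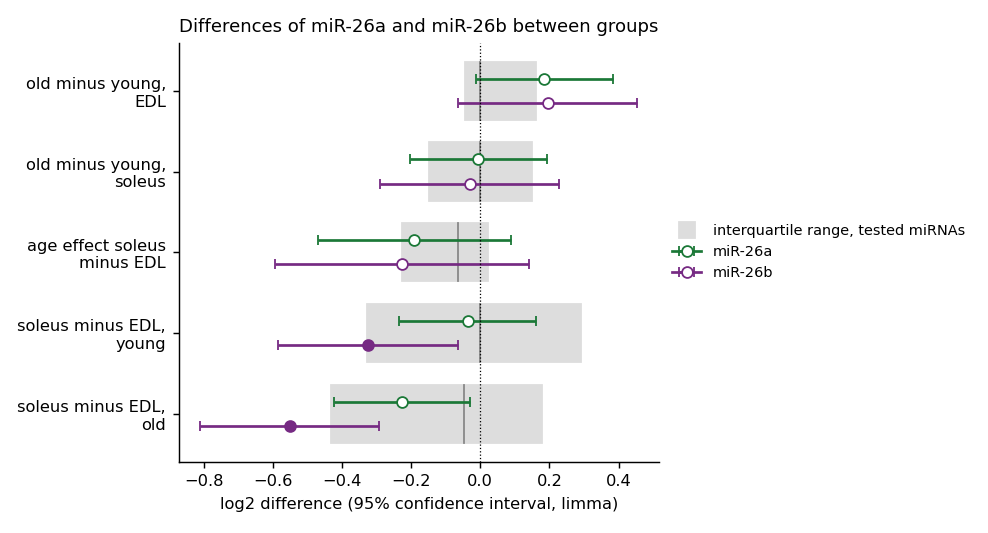
Log2 differences of miR-26a and miR-26b (horizontal axis, points with 95% confidence intervals from limma) in the 5 comparisons (rows), over grey boxes for the interquartile range of the 114 tested miRNAs with their median as a line. Filled points passed at adjusted p under 0.05, which were miR-26b in soleus minus EDL of young (-0.32) and old rats (-0.55), the young one turning to 0.28 under spike-in scaling.

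The order of the 4 groups was the same for both members, and most neighbours in it did not differ beyond their spread. Mean log2 levels of miR-26a were 1.37 ± 0.11 in old soleus, 1.37 ± 0.10 in young soleus, 1.59 ± 0.03 in old EDL and 1.41 ± 0.22 in young EDL (SD, n = 4 each). Those of miR-26b were -1.79 ± 0.09, -1.76 ± 0.19, -1.24 ± 0.14 and -1.43 ± 0.24 in the same groups. Old soleus was thus lowest and old EDL highest, and among adjacent groups the step that passed was young soleus against young EDL for miR-26b. Over all 16 arrays the SD of the log2 level was 0.15 for miR-26a and 0.28 for miR-26b. Among the 54 miRNAs well above background on all arrays, whose median SD was 0.32, miR-26a had the 8th lowest SD and miR-26b the 24th lowest.

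The 2 probes of each member gave similar differences. In old rats, soleus minus EDL was -0.55 and -0.61 on the log2 scale for the brighter and dimmer probe of miR-26b (limma adjusted p = 0.00167 and 0.00115 over 204 probes), and -0.23 and -0.24 for those of miR-26a (adjusted p = 0.0474 and 0.0642). In young rats the values were -0.32 and -0.31 for miR-26b (adjusted p = 0.0406 and 0.0549) and -0.036 and -0.14 for miR-26a (adjusted p = 0.854 and 0.324). In these muscle comparisons the 2 probes of a miRNA had the same sign, while a pass at the threshold differed between them. None of the 4 probes passed in an age comparison or in the interaction, where their adjusted p was 0.263 or higher.

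The ratio of the members within an array is not changed by dividing an array by any 1 factor, and it asks whether the 2 miRNAs differed unequally between muscles. The log2 ratio of miR-26a over miR-26b averaged 3.15 ± 0.04 in old soleus and 2.83 ± 0.17 in old EDL, and 3.13 ± 0.11 in young soleus and 2.84 ± 0.25 in young EDL (SD, n = 4 each). The difference in old rats was 0.32, with soleus values of 3.11 to 3.21 that did not overlap EDL values of 2.74 to 3.08. Its two-sided exact permutation p was 0.0286, the smallest that 4 against 4 arrays allow. After adjustment over 4 comparisons it was 0.114 and did not pass. With this few arrays an adjusted p could pass only if most of the 4 comparisons reached that smallest p. As a row of the limma model without a covariate, the same difference had an adjusted p of 0.0262. In young rats the difference was 0.29 with overlapping groups (exact permutation p = 0.114, adjusted 0.229), with an adjusted p of 0.0517 in limma. With age the ratio differed by -0.01 in EDL (exact permutation p = 0.914). In soleus the corresponding value was 0.03 (exact permutation p = 0.714). Quantile normalisation, which applies no single factor, gave ratio differences, soleus minus EDL, of 0.19 in old and -0.28 in young rats, and -0.41 for old minus young EDL.

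This ratio followed the brightness of the array within each muscle. Each relation pooled young and old arrays, which in soleus lay on different slides, and its permutation p treats the 8 arrays as alike. Over the 8 EDL arrays the ratio and the log2 brightness had a Pearson r of -0.938 (exact permutation p = 7.44e-05, adjusted 0.000595 over 8 relations) and a Spearman rho of -0.976 (exact p = 0.000397). Without the 2 arrays farthest from the median brightness, young EDL 9 and old EDL 3, r was -0.797. Those 2 dim EDL arrays had ratios of 3.14 and 3.08, inside the soleus range of 3.04 to 3.28. Over the 8 soleus arrays r was -0.805 (exact permutation p = 0.017, adjusted 0.0454) and rho -0.69 (exact p = 0.0694), but r was -0.37 without young soleus 7 and 9, so that relation rests on them. With brightness as a covariate, soleus minus EDL of the ratio was -0.14 in old rats (SE 0.08, limma adjusted p = 0.272) and -0.032 in young rats (SE 0.07, adjusted p = 0.881).

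**Figure D3:**
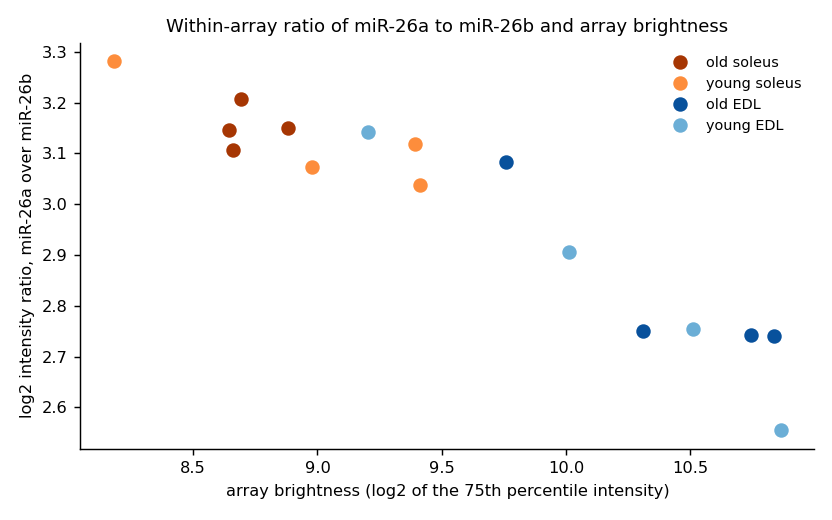
Log2 ratio of miR-26a over miR-26b within each array (vertical axis) against the log2 of the array's 75th percentile intensity (horizontal axis), coloured by group. The dim EDL arrays young EDL 9 and old EDL 3, at ratios of 3.14 and 3.08, lie among the soleus arrays (3.04 to 3.28), and the brightest EDL array has the lowest ratio, 2.55.

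The scaled levels behaved unequally with brightness. A scaled level is divided by the same percentile that gives brightness, a shared term for which the permutation p does not allow. Each relation again pooled young and old arrays. For miR-26b, the Pearson r of level and brightness was 0.765 over EDL arrays (exact permutation p = 0.0262, adjusted 0.0525) and 0.812 over soleus arrays (exact p = 0.0162, adjusted 0.0454). Without the 2 farthest arrays in each muscle these were 0.205 and 0.391, so both rest on those arrays. For miR-26a the correlation was -0.145 over EDL arrays (exact permutation p = 0.755) and 0.527 over soleus arrays (exact permutation p = 0.181), both with adjusted p of 0.241 or more. Between probes of the same miRNA the log2 ratio ranged over 0.208 for miR-26a and 0.145 for miR-26b across the 16 arrays, against 0.727 for miR-26a over miR-26b. The probe ratio of miR-26a still separated young soleus (0.65) from young EDL (0.55) without overlap, with an exact permutation p of 0.0286 (adjusted 0.114). In the other comparisons the groups overlapped for both probe ratios. The 2 labelling spike-ins, which are not rat miRNAs, also differed in their ratio between muscles. Their log2 ratio, dmr_285 over dmr_31a, was lower in soleus than in EDL by 0.30 in old rats (0.57 against 0.87) and by 0.36 in young rats (0.51 against 0.87), with an exact permutation p of 0.0286 each (adjusted 0.0571). The part of labelling in the muscle difference of miR-26b was not tested.

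Under all 17 alternative settings run, and without each single array, the difference of miR-26b in old rats stayed below 0, from -2.24 with no scaling between arrays to -0.11 with brightness as a covariate. The spike-in scaling moved both members up relative to EDL in young rats, to 0.57 for miR-26a (limma adjusted p = 0.00122) and 0.28 for miR-26b (adjusted p = 0.0167). It moved miR-26a in old rats to 0.13 (adjusted p = 0.446). Without any scaling the values were -1.92 for miR-26a and -2.24 for miR-26b in old rats, where the median of all tested miRNAs was -1.56.

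**Figure D4:**
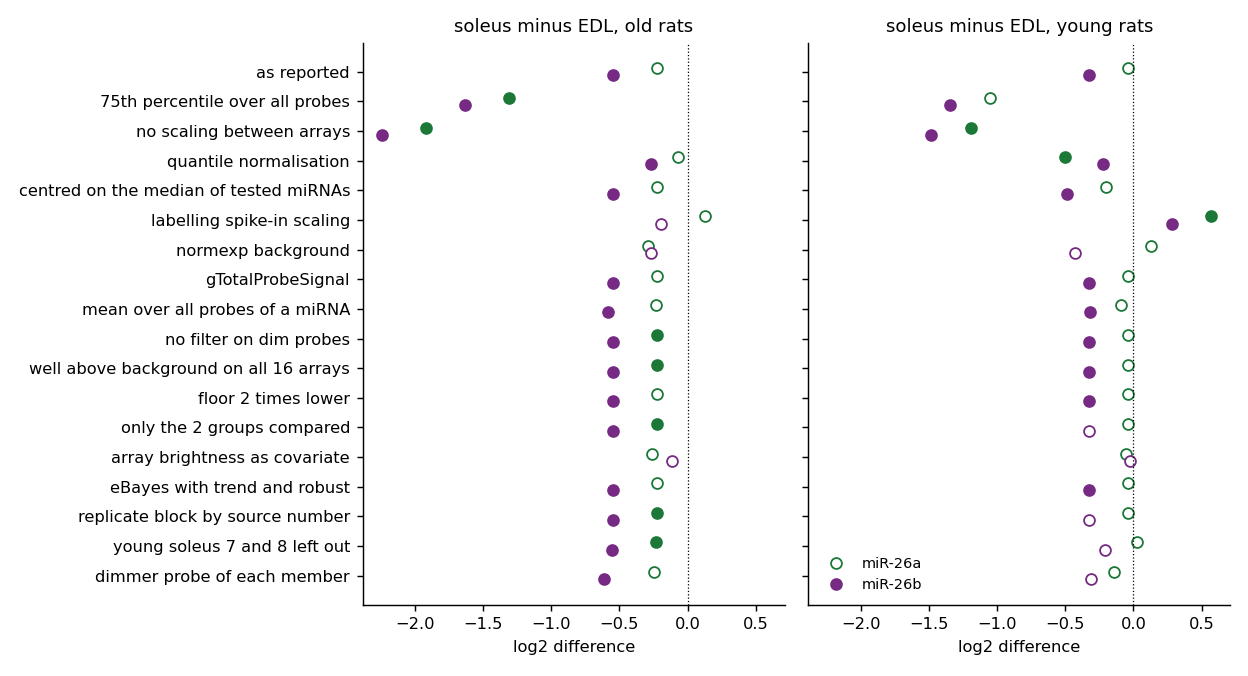
Log2 difference, soleus minus EDL (horizontal axis), of miR-26a and miR-26b in old and young rats under the reported and each alternative setting (rows), with filled points where the limma adjusted p was under 0.05. miR-26b stays below 0 in old rats (-2.24 to -0.11), and in young rats it turns to 0.28 under spike-in scaling.

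Some markers of other cell types also differed between the muscles at the scaling used. The summed scaled level of the 2 smooth muscle markers was 0.410 to 0.528 in old soleus, 0.473 to 0.597 in young soleus, 0.641 to 0.849 in old EDL and 0.621 to 0.836 in young EDL. The endothelial marker miR-126 was at 0.378 to 0.458 in old soleus and 0.468 to 0.677 in old EDL, and 0.402 to 0.489 in young soleus and 0.443 to 0.624 in young EDL. In old rats soleus and EDL overlapped in neither value, and in young rats they overlapped for miR-126. Of all 114 tested miRNAs, 30.7% were lower in old soleus with groups that did not overlap. The call of miR-126 in old rats was lost in 4 of 7 other settings and changed direction in 1. The 4 fibroblast markers summed to 0.497 to 0.767 in old soleus, 0.352 to 0.435 in young soleus, 0.597 to 0.994 in old EDL and 0.526 to 0.830 in young EDL. These sums overlapped between muscles in old rats and not in young rats. All 4 passed as lower in young soleus and 1 in old soleus, beside 23.7% and 32.5% of all tested. In young rats the calls of miR-199a-3p and miR-214 were lost in 2 and 3 of 7 other settings. Of the 4 leukocyte markers, 2 were detected on no array of old soleus, young soleus or young EDL, and 1 on none of old EDL. The 2 leukocyte markers tested went opposite ways, with 1 higher and 1 lower in soleus at each age. The part of these cell types in the difference of miR-26b was not tested.

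The miRNAs whose centred log2 profile over the 16 arrays was closest to each member were ranked by root mean square difference. For miR-26b they were let-7i (0.0974), miR-126 (0.101), miR-150 (0.111), miR-133a* (0.127) and miR-193 (0.131, at the floor of measurement on 9 arrays). let-7i had a log2 difference, soleus minus EDL, of -0.46 in old rats (limma adjusted p = 0.00282) and -0.38 in young rats (adjusted p = 0.0123). The value in old rats was -0.034 (adjusted p = 0.839) with quantile normalisation, -0.11 (adjusted p = 0.516) with spike-in scaling and -0.084 (adjusted p = 0.79) with brightness as a covariate, and that in young rats turned to 0.23 under spike-in scaling as that of miR-26b did. For miR-26a the closest were miR-30d (0.103), miR-152 (0.124), miR-106b (0.129), miR-133b (0.129) and miR-361 (0.133), of which miR-152, miR-106b and miR-361 were at the floor on 12, 13 and 12 arrays. Neither member was among the 5 closest to the other, from which it differed by 0.207. Of 113 other miRNAs, miR-26b was the 37th closest to miR-26a, and miR-26a the 20th closest to miR-26b.

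Other miRNAs reported to promote myogenic differentiation moved in both directions between muscles. Of 16 tested of 19 listed, 4 were higher and 6 lower in old soleus than in old EDL, and 4 were higher and 5 lower in young soleus than in young EDL, where 21.1% and 19.3% of all tested were higher and 32.5% and 23.7% lower. Under spike-in scaling these counts were 6 higher and 3 lower in old rats and 10 higher and 1 lower in young rats. With no scaling they were 1 higher and 12 lower in old rats and 2 higher and 9 lower in young rats. Their median log2 difference was -0.01 in old and 0.04 in young rats, beside -0.05 and 0 over all 114 tested. At the scaling used, miR-181b of these 16 was at the floor on 16 of 16 arrays and could not pass. The muscle-specific miR-206 was higher in soleus by 1.98 in old and 3.52 in young rats on the log2 scale (limma adjusted p = 4.07e-09 and 6.56e-12). miR-499, which lies in a myosin gene and is typical of slow muscle, was at the floor on 3 of 4 arrays in each EDL group and was higher by 3.35 and 3.77 (adjusted p = 6.08e-10 and 7.14e-11), sizes that the floor in EDL sets. With normexp they were 1.56 and 1.32 and did not pass (adjusted p = 0.0503 and 0.129). The muscle miRNA miR-133a was lower, with -0.77 and -0.61 (adjusted p = 2.09e-05 and 0.000158), the value in young rats turning to 0.0015 under spike-in scaling. Of the same 16, 5 were higher and 0 lower in old than in young EDL, and 2 were higher and 0 lower in old than in young soleus, beside 10.5% higher and 1.75% lower of all tested in EDL and 1.75% each way in soleus. These counts depended on the scaling, with 4 higher and 2 lower in EDL with quantile normalisation, 1 higher and 8 lower in soleus under spike-in scaling, and 0 in either direction in both muscles with no scaling and with the percentile over all probes. Among the 5 were miR-206, at 1.20 (adjusted p = 3.2e-06), and miR-27a, which represses myostatin in mouse, at 0.33 (adjusted p = 0.0448). The call of miR-27a was lost in 6 of 7 other settings for scaling, background and brightness, with 0.15 (adjusted p = 0.373) for quantile normalisation and 0.28 (adjusted p = 0.145) for spike-in scaling, and that of miR-206 in 2, no scaling and the percentile over all probes. Of 33 such calls of the 15 miRNAs named from the lists or as let-7i, 2 held in all 7 settings, those of miR-206 in young rats and of miR-133a in old rats between muscles, and 14 changed direction in at least 1.

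Of the miRNAs reported to restrain differentiation, 3 of 6 were tested. miR-23a, which is transcribed together with miR-27a, was higher in soleus in old rats (0.98, limma adjusted p = 4.95e-06) and young rats (1.26, adjusted p = 3.5e-07), but below 0 in old rats with no scaling (-0.71) and when all probes entered the percentile (-0.10). miR-125b-5p, which represses Igf2 in mouse myoblasts, was lower at both ages (-0.49 and -0.44, adjusted p = 2.23e-05 and 7.45e-05), but 0.17 in young rats under spike-in scaling. miR-199a-3p was lower in young soleus (-0.86, adjusted p = 0.00062) and had a difference of -0.20 in old rats (adjusted p = 0.293). The list's median was -0.20 in old and -0.44 in young rats. With age, 1 of its 3 tested members, miR-23a, was higher in old EDL (0.37, limma adjusted p = 0.0243), where 10.5% of all tested were higher. This call was lost in 6 of the 7 other settings (0.32, adjusted p = 0.146, under spike-in scaling).

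Other miRNAs reported to repress Ezh2 or Smad transcripts, the latter not limited to Smad1 and Smad4, were measured in part. Of 6 listed miRNAs reported to repress Ezh2, 4 were tested, and miR-101a and miR-101b were at the floor on 15 and 16 of 16 arrays. miR-214, which is also on the differentiation list, was higher in old than in young soleus (0.73, limma adjusted p = 0.0384) and lower in young soleus than in young EDL (-0.66, adjusted p = 0.00757), and 0 of the 4 passed between muscles in old rats, where 53.5% of all tested passed. Of 9 listed miRNAs reported to repress Smad transcripts, 6 were tested, of which 2 were higher and 1 lower in soleus at each age. Another of the 6, miR-140, was at the floor on 16 of 16 arrays and could not pass at the scaling used. Of all tested, 21.1% were higher and 32.5% lower in old rats, and 19.3% higher and 23.7% lower in young rats. With no scaling the counts were 0 higher and 6 lower in old rats and 0 higher and 2 lower in young rats. miR-24 was higher by 0.67 in old and 0.70 in young rats (adjusted p = 5.46e-05 and 5.78e-05), and miR-23b by 0.30 and 0.40 (adjusted p = 0.000982 and 0.000139), all of which were below 0 with no scaling and with the percentile over all probes. The smooth muscle miRNA miR-145 was lower, with -0.79 and -0.67 (adjusted p = 0.000137 and 0.00062), and 0.19 in old rats with normexp. In the age comparisons 0 of these 6 passed, beside 12.3% of all tested in EDL and 3.51% in soleus. However, 2 were lower in old soleus under spike-in scaling and 1 was lower in each muscle of old rats with quantile normalisation.

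Other miRNAs within introns of protein-coding genes, as both members are, had a direction between muscles that depended on the scaling. Of 9 listed, 7 were tested, with 1 higher and 3 lower in old soleus than in old EDL and 1 higher and 2 lower in young soleus than in young EDL, beside 21.1% higher and 32.5% lower of all tested in old rats and 19.3% and 23.7% in young rats. Under spike-in scaling they were 2 higher and 0 lower in old rats and 4 higher and 0 lower in young rats, and with no scaling 1 higher with 6 lower in old and 4 lower in young rats. miR-378, from the gene of the coactivator PGC-1beta, was lower, with -0.41 in old and -0.64 in young rats (limma adjusted p = 0.00891 and 0.00062), but -0.054 and -0.034 under spike-in scaling (adjusted p = 0.913 and 0.939). miR-126 was lower in old soleus (-0.48, adjusted p = 0.00654), but 0.024 with brightness as a covariate. miR-103 was lower at both ages (-0.18 and -0.24, adjusted p = 0.0497 and 0.016), but 0.18 and 0.37 under spike-in scaling and 0.34 in old rats with normexp. With age, 1 of the 7, miR-103, which lies in a pantothenate kinase gene, was lower in old EDL (-0.27, limma adjusted p = 0.0243), beside 1.75% of all tested. This call was lost in 4 of the 7 other settings, while spike-in scaling gave 4 lower and 0 higher in old soleus. The medians of this list were -0.12 in old and -0.04 in young rats between muscles. At the scaling used, miR-140 of this list was at the floor on 16 of 16 arrays and could not pass. miR-152 was at the floor on 12.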

How the data were processed

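MicroRNA was measured in 16 muscle samples on single-colour Agilent arrays. Per the file headers, the authors' deposited intensity of each spot, gProcessedSignal, was made with Agilent Feature Extraction 10.7.3.1, and the submitters' processing notes give version 10.7. The series table held the same values in 100% of cells.

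Control and outlier-flagged spots (3.03%) were left out and spots of a probe averaged. Arrays were divided by the 75th percentile of 95 probes well above background on all 16 arrays, raised to a floor of 0.0339 and converted to log2. Both members lay above the floor on every array. The brightest probe represented each miRNA, and 114 miRNAs well above background on at least 4 arrays were tested with limma 3.58.1 in R 4.3.3, in 1 model of 4 groups, two-sided, with Benjamini-Hochberg adjustment within each comparison. A difference of exactly 0 was given a p of 1. The fit was tested on simulated data. Ratios within an array were compared with exact permutation tests.

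Named miRNAs are both members, their 3p strands, up to 4 members of smallest p from each of 5 lists, and the 5 closest profiles. Some list members at the floor are named as well. Lists share miR-214, miR-24, miR-27b, miR-140, miR-378 and miR-499. The members and lists were chosen with earlier results of these data known. Deviations of same-numbered EDL and soleus samples correlated between -0.761 and 0.767 over 54 miRNAs. Whether these samples share animals could not be settled from this, since the muscles also differed in slide and brightness. Files were read with jsonlite 2.0.0, and figures were drawn with numpy 2.4.6 and matplotlib 3.10.9 under Python 3.11.15. Alternatives covered scaling, background, signal column, probe rule, filter, floor, samples in the fit, brightness, pairing and each array left out. The number of arrays limits the precision.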

Additional observations from a re-analysis of the deposited data

Results flagged for a closer look

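Of 16 groups of 4 arrays checked for a sample far from the others, 2 stood out, and chance flags about 1 in 20 groups. Both concern old EDL sample 3. Its log2 level of miR-26b was -1.44, against -1.18, -1.17 and -1.15 in old EDL samples 1, 2 and 4, and its log2 ratio of miR-26a over miR-26b was 3.08, against 2.75, 2.74 and 2.74. The 2 values share the miR-26b measurement. This array had the lowest 75th percentile intensity of old EDL, 866 against 1270, 1715 and 1830. Without it the soleus minus EDL difference of the ratio in old rats was 0.41, against 0.32 with it.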

How the results depend on the processing

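The soleus minus EDL difference of miR-26b in old rats kept its direction under 17 alternatives and without each single array (-0.62 to -0.52), and lost its call under 3. The number of arrays, the brightness gap between muscles and the 1 slide per soleus group limit every muscle comparison. Some settings moved the median of all tested miRNAs by over 0.1 in soleus minus EDL, and member values there are relative to that shift. In old and young rats it was -0.99 and -0.85 with the percentile over all probes, -1.52 and -0.91 with no scaling, 0.07 and 0.32 with spike-in scaling and 0.19 and -0.40 with normexp. It was -0.16 in young rats with centring on the median, and in old rats -0.15 with a floor 2 times lower, -0.14 with gTotalProbeSignal and -0.12 over miRNAs well above background on all 16 arrays. The cause of the changes below was not tested.

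With the percentile over all probes, old minus young in EDL was -0.12 for miR-26a and -0.11 for miR-26b, soleus minus EDL of miR-26a in old rats was -1.31 and passed, and 0 miRNAs passed in the EDL, soleus and interaction comparisons of age. With no scaling, miR-26a was -1.19 in young and -1.92 in old rats between muscles and passed in both, 93 miRNAs passed between muscles in old rats, and 0 passed in each age comparison and the interaction. With quantile normalisation, miR-26a was -0.40 with age in EDL (limma adjusted p = 0.0219), 0.027 with age in soleus, 0.43 in the interaction and -0.50 between muscles in young rats (adjusted p = 0.00263), the ratio, added after seeing the data, was -0.28 between muscles in young rats, and 10 miRNAs passed with age in soleus and 4 in the interaction. Centring on the median gave 0.051 for miR-26a and 0.026 for miR-26b with age in soleus, and 8 miRNAs passed there and 3 in the interaction. Spike-in scaling gave miR-26b -0.33 with age in soleus and -0.48 in the interaction, which both passed. It also gave miR-26a 0.57 in young and 0.13 in old rats, and miR-26b 0.28 in young and -0.19 in old rats, between muscles, and 8, 39 and 29 miRNAs passed with age in EDL, in soleus and in the interaction. With normexp, miR-26b was -0.17 with age in EDL, 0.16 in the interaction, and -0.43 in young and -0.27 in old rats between muscles. miR-26a was then 0.13 in young rats, the ratio of miR-26a over miR-26b was 0.55 with age in EDL, -0.029 with age in soleus and -0.025 between muscles in old rats, and the counts were 1, 0, 5 and 7 for age in EDL, age in soleus, and muscle in young and old rats.

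With array brightness as a covariate, miR-26b was 0.039 with age in soleus, and -0.025 in young and -0.11 in old rats between muscles, and 16 miRNAs passed with age in soleus, 2 in the interaction, 32 between muscles in young and 24 in old rats. The ratio was then 0.063 with age in EDL, -0.050 with age in soleus, and -0.032 in young and -0.14 in old rats between muscles. The mean over probes gave miR-26a 0.022 with age in soleus, with 1 miRNA passing there. gTotalProbeSignal gave 7 with age in soleus and 2 in the interaction, and a floor 2 times lower gave 8 and 2. miRNAs measured on all 16 arrays gave 9 with age in EDL, 8 with age in soleus and 39 between muscles in old rats, and miR-26a passed there at -0.23, as it did with no filter (leaving out miRNAs at the floor on every array) and with only the 2 groups compared. With only the 2 groups compared miR-26b in young rats, at -0.32, did not pass. The dimmer probes, chosen after seeing the data, gave miR-26a 0.049 with age in soleus and miR-26b -0.31 in young rats between muscles, which did not pass. Leaving out young soleus 7 and 8, also added after seeing the data, gave miR-26a 0.028 in young and -0.23 in old rats, which passed in old, and miR-26b -0.21 in young rats, which did not. Then 29 miRNAs passed with age in soleus and 11 in the interaction.

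With the source number as a replicate block, soleus minus EDL of miR-26b in young rats was -0.32 (limma adjusted p = 0.0959), that of miR-26a in old rats was -0.23 (adjusted p = 0.0417), and 2 miRNAs passed in the interaction. With the title number as a block, 13 passed with age in soleus. No sample correlated best with its own number across muscles, which does not show that same-numbered samples came from separate animals.

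Without each single array in turn, miR-26b between muscles in young rats was -0.42 to -0.22, miR-26a there -0.14 to 0.034 and in old rats -0.26 to -0.18. With age in soleus miR-26a was -0.099 to 0.042 and miR-26b -0.18 to 0.040, and with age in EDL they were 0.084 to 0.26 and 0.099 to 0.30. The count of miRNAs was 7 to 16 with age in EDL and 1 to 7 in the interaction. With age in soleus it was 1 to 34, and the 34 came without young soleus 7.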
